A study of Homo sapiens with 6 samples.

Results

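The 66 protein-coding genes of the matrix metalloproteinase (MMP), ADAM, ADAMTS and tissue inhibitor of metalloproteinases (TIMP) families were read from RNA-seq of PC9-BrM3 cells. They were taken by name, as MMP, ADAM, ADAMTS or TIMP followed by a number, from a table of 58735 genes, of which 19951 are protein coding. The set holds 23 MMP, 20 ADAM, 19 ADAMTS and 4 TIMP genes. A further 3 symbols of these families with another biotype were left aside.

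PC9-BrM3 is a derivative of the human lung adenocarcinoma line PC9 that was selected in immunodeficient mice for growth in the brain. All cells were kept in routine culture in RPMI1640 with serum, and none of these libraries was from drug-treated cells. BrM3-shAKR1B10 cells carried a lentiviral shRNA against AKR1B10, and BrM3-shNC cells carried the negative control shRNA. Each group had 3 libraries. The labels do not say whether they were separate cultures, so p-values measure only the spread between these libraries, which may be technical.

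MMPs are zinc-dependent proteases that cut collagens and other matrix proteins, either after secretion or at the cell surface. ADAMs are membrane-bound relatives that release growth factors and receptors from the cell surface, and ADAMTS enzymes are secreted proteases of collagen precursors and proteoglycans. TIMPs bind the active site of MMPs and of some ADAM and ADAMTS enzymes and block it. In brain metastasis the families are studied because a tumor cell passes the basement membrane and vessel wall to reach the tissue.

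The libraries held 16964504 to 18709028 reads on genes. Levels are given in FPKM, the fragments per 1000 bases of gene scaled to library size, and 3 reads in a library, taken as the smallest level that the depth shows, equal 0.163 to 0.177 FPKM for a gene of 1000 bases. Such limits and read counts cover counting error only. AKR1B10, the silenced aldo-keto reductase, stood at 108.3, 107.2 and 110.2 FPKM in BrM3-shAKR1B10 and at 798.7, 775.0 and 772.0 FPKM in BrM3-shNC, so that 13.9% of the control level remained (log2 fold change -2.85, SE 0.0300, limma adjusted p = 1.6e-07). The 6 epithelial markers summed to 3167 to 3253 FPKM in BrM3-shAKR1B10 and 2986 to 3348 FPKM in BrM3-shNC. The 4 lung lineage markers (NKX2-1, NAPSA, SFTPB, SFTPC) were nearly absent, with sums of 0.591 to 0.927 against 0.465 to 0.666 FPKM. Sums over 6 fibroblast markers were 1.20 to 1.37 against 2.03 to 2.08 FPKM with COL1A2, DCN and LUM at 0 in all 6 libraries, those over 5 leukocyte markers 1.33 to 1.43 against 1.77 to 2.09 FPKM, those over 4 endothelial markers 2.10 to 2.37 against 1.52 to 1.79 FPKM with KDR at 0 in all 6, and those over 4 neural and glial markers 2.52 to 2.70 against 3.43 to 3.59 FPKM. Most of the endothelial sum came from CDH5 (1.85 against 1.14 FPKM on average), while PECAM1 ran the other way (0.272 against 0.438 FPKM). COL1A1 (1.22 against 1.98 FPKM) gave most of the fibroblast sum and MBP (2.56 against 3.41 FPKM) most of the neural and glial sum. CD3E among the leukocyte markers was at 0 in all 3 BrM3-shNC libraries, and AQP4 among the neural and glial markers was at 0 in all 3 BrM3-shAKR1B10 libraries. The part of these low levels in the results was not tested, and in bulk RNA fewer cells making a transcript and less transcript per cell cannot be told apart.

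Promoters are shown for members from the expressed to the nearly silent end of the families. RefSeq (GRCh38.p14) gave the 250 bases before the start of 39 of the 66 members. Of the sequences below, TIMP3 and ADAM23 belong to the members that were higher in BrM3-shAKR1B10, MMP14 to those that were lower by reads, and MMP7 to the members at almost no reads. Capitals mark a GC box (GGGCGG, or CCGCCC where it lies on the other strand), an AP-1 motif (TGAGTCA) or a TATA box (TATAAA), each searched on both strands. The regions are chr22:32801455-32801704 on the plus strand for TIMP3, chr2:206443282-206443531 on the plus strand for ADAM23, chr14:22836335-22836584 on the plus strand for MMP14 and chr11:102530748-102530997 on the minus strand for MMP7.
TIMP3: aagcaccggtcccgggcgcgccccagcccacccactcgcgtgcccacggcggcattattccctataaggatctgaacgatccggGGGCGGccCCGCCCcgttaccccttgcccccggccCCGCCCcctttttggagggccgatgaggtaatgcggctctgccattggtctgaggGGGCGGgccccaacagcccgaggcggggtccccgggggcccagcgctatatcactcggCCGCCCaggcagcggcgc
ADAM23: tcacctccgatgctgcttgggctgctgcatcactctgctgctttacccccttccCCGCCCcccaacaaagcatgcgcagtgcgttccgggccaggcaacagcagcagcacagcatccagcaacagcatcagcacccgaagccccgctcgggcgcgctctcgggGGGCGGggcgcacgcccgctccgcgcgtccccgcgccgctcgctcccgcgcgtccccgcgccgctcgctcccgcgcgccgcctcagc
MMP14: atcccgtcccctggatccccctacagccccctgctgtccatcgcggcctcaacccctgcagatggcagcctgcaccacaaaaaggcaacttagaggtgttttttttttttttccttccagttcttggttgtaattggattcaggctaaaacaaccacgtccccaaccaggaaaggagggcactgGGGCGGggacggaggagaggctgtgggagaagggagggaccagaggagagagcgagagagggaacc
MMP7: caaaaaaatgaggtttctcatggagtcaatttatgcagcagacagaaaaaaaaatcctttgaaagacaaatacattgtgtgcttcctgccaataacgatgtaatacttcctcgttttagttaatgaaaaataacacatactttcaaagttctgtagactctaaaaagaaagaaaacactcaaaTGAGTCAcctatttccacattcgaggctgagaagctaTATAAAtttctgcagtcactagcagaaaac

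The GC content of these sequences is 72.4% in TIMP3, 73.6% in ADAM23, 56.8% in MMP14 and 33.6% in MMP7, against a median of 58% over 35116 promoters. Among the 11 members with a promoter and a mean of at least 1 FPKM, the median GC content was 73.6%, and all 11 held a GC box and 0 a TATA box. The 10 members under 1 FPKM with at least 10 reads on average had a median of 70.8%, with a GC box in 9 and a TATA box in 0. The 18 members with fewer reads had a median of 45.8%, with a GC box in 6 and a TATA box in 7. That last class was mixed, with a range from 32.8% to 80%, and ADAMTS2, ADAMTS10, MMP23B, ADAMTS3, ADAMTS18 and ADAMTS19 were as rich in G and C as many expressed members. Over all promoters 42.6% held a GC box and 10.7% a TATA box. The AP-1 motif was found in 4.20% of all promoters and in 1 of the 39 members with a promoter, MMP7, from 67 to 61 bases before the start. Members without a promoter sequence, MMP1, MMP3, MMP9, MMP12 and MMP13 among them, were not searched. These matches are descriptions of the letters in the window and no binding was measured.

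Few members were expressed at a level that the main test could use. A mean of at least 1 FPKM was reached by 15 members, which were 7 ADAM, 4 TIMP, 2 MMP and 2 ADAMTS genes. A further 16 members stayed under 1 FPKM with at least 10 reads per library on average. Another 22 members had fewer reads than that, and 13 members had no read in any of the 6 libraries. The silent 13 were MMP8, MMP12, MMP26, MMP27, ADAM2, ADAM7, ADAM30, ADAM33, ADAMTS3, ADAMTS5, ADAMTS10, ADAMTS18 and ADAMTS19, for each of which 0 reads allows up to 3 reads per library.

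By summed FPKM the ADAM and TIMP families were the most abundant. In BrM3-shAKR1B10 the 20 ADAM genes summed to 132.2 ± 2.14 FPKM (SD, n = 3), against 119.7 ± 0.839 FPKM in the controls. The TIMP sum was 120.1 ± 0.932 against 79.5 ± 1.46 FPKM. The 23 MMP genes together reached only 35.0 ± 0.646 against 31.6 ± 1.52 FPKM, and the 19 ADAMTS genes 6.54 ± 0.275 against 6.22 ± 0.320 FPKM. MMP15 alone gave 86.5% to 88.8% of the MMP sum in BrM3-shAKR1B10 libraries and 83.0% to 83.7% in controls. ADAM9 gave 55.3% to 56.5% against 49.3% to 52.8% of the ADAM sum.

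**Figure D1:**
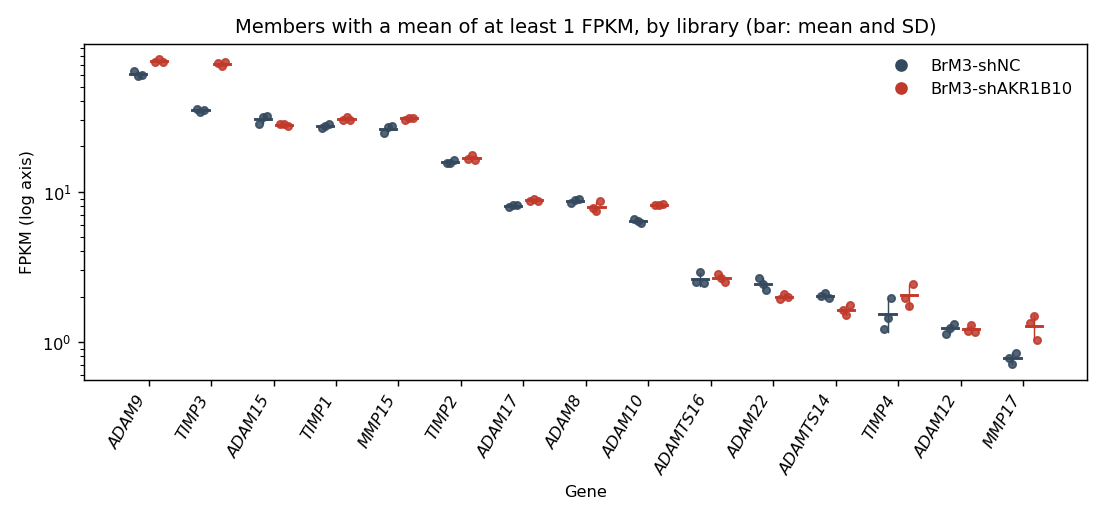
FPKM on a log axis of the 15 members with a mean of at least 1 FPKM, ordered by their mean, with 1 point per library and the mean and SD of each group as bars. TIMP3 stands apart, with all 3 BrM3-shAKR1B10 libraries at 68.4 FPKM or more and all 3 BrM3-shNC libraries at 35.7 FPKM or less, while most other members differ little between the groups.

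The main comparison asked which of the families changed when AKR1B10 was silenced. A call needed a limma adjusted p under 0.05 together with a log2 fold change beyond 0.5 in either direction on log2(FPKM + 0.1), a scale that understates the change of low genes. Of the 15 members tested, 2 rose, TIMP3 and MMP17, and 0 fell. Of all 13150 genes tested, 5.83% rose and 7.45% fell. MMP17 reached the filter of 1 FPKM only through the BrM3-shAKR1B10 libraries, and of the 14 members with both group means above it, 1 rose. The median log2 fold change was 0.11 over the 15 members and -0.01 over all genes tested. With the adjusted p alone, 7 members were higher and 1 was lower, where 19.4% of all genes were higher and 23.1% lower. The member lower by that looser rule was ADAMTS14, whose adjusted p was above 0.05 when any 1 library was left out (0.0517 to 0.137).

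TIMP3 (ENSG00000100234, chromosome 22, 32801701 to 32863043, plus strand, GRCh38) encodes the inhibitor that is bound to the matrix and that blocks ADAM10 and ADAM17 as well as MMPs. Its level was 71.6, 68.4 and 72.4 FPKM in BrM3-shAKR1B10 and 35.7, 33.9 and 34.8 FPKM in BrM3-shNC. The lowest BrM3-shAKR1B10 library lay far above the highest control, and TIMP3 rose 2.03-fold (log2 fold change 1.02, SE 0.0364, limma adjusted p = 1.2e-05). The call held under all 25 settings that were run, with a log2 fold change of up to 1.08. TIMP3 lies within SYN3, a gene on the opposite strand that shares 0 exon bases with it and stood at 0.0308 against 0.0203 FPKM.

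The other inhibitors moved less. TIMP1, a secreted inhibitor, had 30.2, 31.5 and 29.8 FPKM against 26.7, 27.5 and 28.0 FPKM, without overlap of the groups, and its log2 fold change of 0.15 stayed under the threshold (SE 0.0366, limma adjusted p = 0.0154). TIMP2, which also takes part in the activation of MMP2 at the cell surface, had 16.5, 17.5 and 16.3 FPKM against 15.4, 15.4 and 16.3 FPKM (log2 fold change 0.09, limma adjusted p = 0.129). TIMP4 had 1.96, 1.75 and 2.43 FPKM against 1.22, 1.43 and 1.96 FPKM, and these groups overlapped (log2 fold change 0.40, SE 0.198, limma adjusted p = 0.150). Without BrM3-shNC replicate 3 its log2 fold change was 0.58 with an adjusted p of 0.0486. TIMP4 shares 170 of its 1650 exon bases with SYN2 on the opposite strand, which stood at 0.184 against 0.158 FPKM.

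The make-up of the inhibitor pool differed between the groups accordingly. TIMP3 made up 57.4% to 59.9% of the summed TIMP level in BrM3-shAKR1B10 and 42.9% to 45.2% in BrM3-shNC. The difference between the TIMP sums was 40.6 FPKM, of which TIMP3 alone accounted for 36.0 FPKM.

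**Figure D2:**
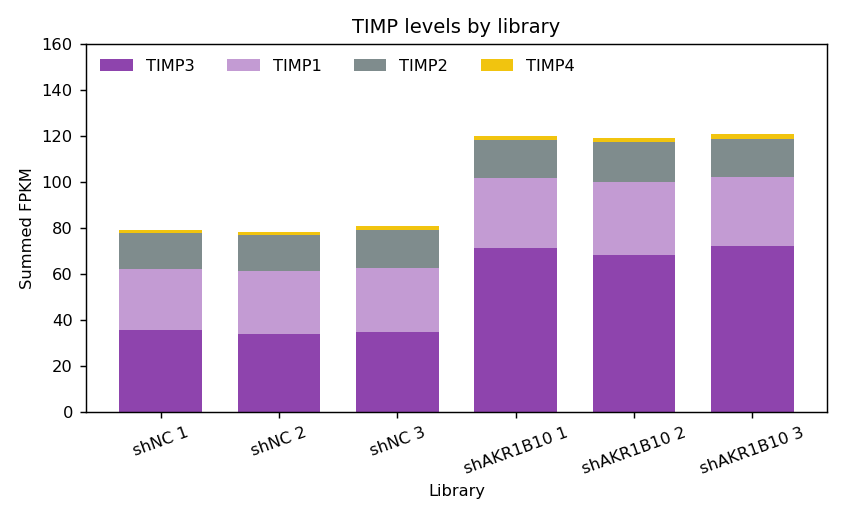
FPKM of the 4 TIMP genes stacked for each library, with the height of a bar giving their sum. The bars reach 78.3 to 81.1 FPKM in BrM3-shNC and 119.1 to 121.0 FPKM in BrM3-shAKR1B10, and the TIMP3 segment differs most.

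Among the membrane-type MMPs, which stay on the cell surface, 2 passed the expression filter. MMP17 (ENSG00000198598, chromosome 12, 131828393 to 131851783, plus strand), which is held by a lipid anchor, had 1.34, 1.48 and 1.03 FPKM in BrM3-shAKR1B10 and 0.776, 0.709 and 0.849 FPKM in BrM3-shNC. The groups did not overlap, and the log2 fold change was 0.65 (SE 0.199, limma adjusted p = 0.0384) for a gene whose control mean of 0.778 FPKM lay below the filter. In this fit the adjusted p was 0.0786, 0.0939 and 0.0604 without BrM3-shNC replicate 1, 2 and 3. Without BrM3-shAKR1B10 replicate 1 or 2 its mean was under 1 FPKM and it was not tested. On recovered reads, where both groups passed the filter, limma's voom called it with all libraries (log2 fold change 0.70, adjusted p = 0.0046) and in 6 of 6 fits with 1 library left out, at log2 fold changes of 0.59 to 0.85. MMP15, the membrane-type enzyme that dominates the family in these cells, had 30.1, 30.8 and 31.1 FPKM against 24.8, 27.0 and 27.2 FPKM. Its log2 fold change of 0.22 stayed under the threshold (SE 0.0446, limma adjusted p = 0.0080).

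Of the ADAMs with a catalytic site, 6 were tested and 0 were called, which at shares of 5.83% higher and 7.45% lower over all genes does not set them apart. ADAM9 was the most abundant member of all, at 72.4, 76.1 and 72.7 FPKM against 63.5, 58.6 and 59.8 FPKM (log2 fold change 0.28, SE 0.0410, limma adjusted p = 0.0021). ADAM10, the main sheddase of Notch receptors and cadherins, had 8.10, 8.11 and 8.26 FPKM against 6.56, 6.42 and 6.20 FPKM (log2 fold change 0.35, SE 0.0402, limma adjusted p = 8.1e-04). ADAM17, which releases TNF and EGFR ligands, had 8.68, 8.89 and 8.65 FPKM against 7.96, 8.10 and 8.17 FPKM (log2 fold change 0.11, limma adjusted p = 0.0440). The groups did not overlap for these 3 enzymes, and all 3 differences were below the fold threshold. The first 2 kept an adjusted p under 0.05 in every setting, while that of ADAM17 reached up to 0.125. ADAM17 shares 12.3% of its exon bases with IAH1 on the opposite strand.

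ADAM15, ADAM8 and ADAM12 did not pass. ADAM15 had 28.3, 28.3 and 27.2 FPKM against 28.3, 31.2 and 31.9 FPKM (log2 fold change -0.12, limma adjusted p = 0.0991). ADAM8 had 7.80, 7.46 and 8.61 FPKM against 8.39, 8.81 and 8.98 FPKM (log2 fold change -0.13, limma adjusted p = 0.129). ADAM12 had 1.18, 1.30 and 1.17 FPKM against 1.13, 1.24 and 1.32 FPKM, and the 95% interval of its log2 fold change ran from -0.34 to 0.31. ADAM22, a neuronal ligand-binding ADAM without protease activity, had 1.93, 2.08 and 1.98 FPKM against 2.66, 2.45 and 2.22 FPKM, and its log2 fold change of -0.28 had an adjusted p of 0.0510. Its groups did not overlap. With limma's voom on recovered reads its adjusted p was 0.0054, and at most 0.0280 with 1 library left out. There its log2 fold change of -0.29 stayed under the fold threshold.

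Among the ADAMTS genes, ADAMTS14, a procollagen N-proteinase, had 1.63, 1.51 and 1.77 FPKM against 2.02, 2.13 and 1.96 FPKM (log2 fold change -0.30, SE 0.0982, limma adjusted p = 0.0478). Every BrM3-shAKR1B10 library was below every control, though the difference stayed under the fold threshold. ADAMTS16 had 2.83, 2.66 and 2.52 FPKM against 2.49, 2.92 and 2.46 FPKM, with overlapping groups and a log2 fold change of 0.03 (95% interval -0.19 to 0.25).

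Most MMPs lie below the level that the FPKM test can use, so they were compared on reads. Multiplying FPKM by gene length and by the library size that the values imply gave back whole reads, and limma's voom was run on 16105 genes with a mean of at least 10 reads. Of the 31 members tested this way, 9 were higher and 4 (12.9%) were lower at the same thresholds, against 7.29% and 8.28% of all genes tested. Of the 9, MMP28 reached 10 reads on average only through BrM3-shAKR1B10, and of the 30 members with both group means at 10 reads or more, 8 were higher and 4 lower. The median log2 fold change of the 31 members was 0.11. By family, 3 of 10 MMPs were higher and 4 lower, 2 of 10 ADAMs, 3 of 7 ADAMTS genes and 1 of 4 TIMPs were higher, and no ADAM, ADAMTS or TIMP was lower. Groups did not overlap for 15 members with higher levels in BrM3-shAKR1B10 (48.4%, MMP28 among them) and 7 with lower levels (22.6%), against 24.9% and 27% of all genes with at least 10 reads.

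**Figure D3:**
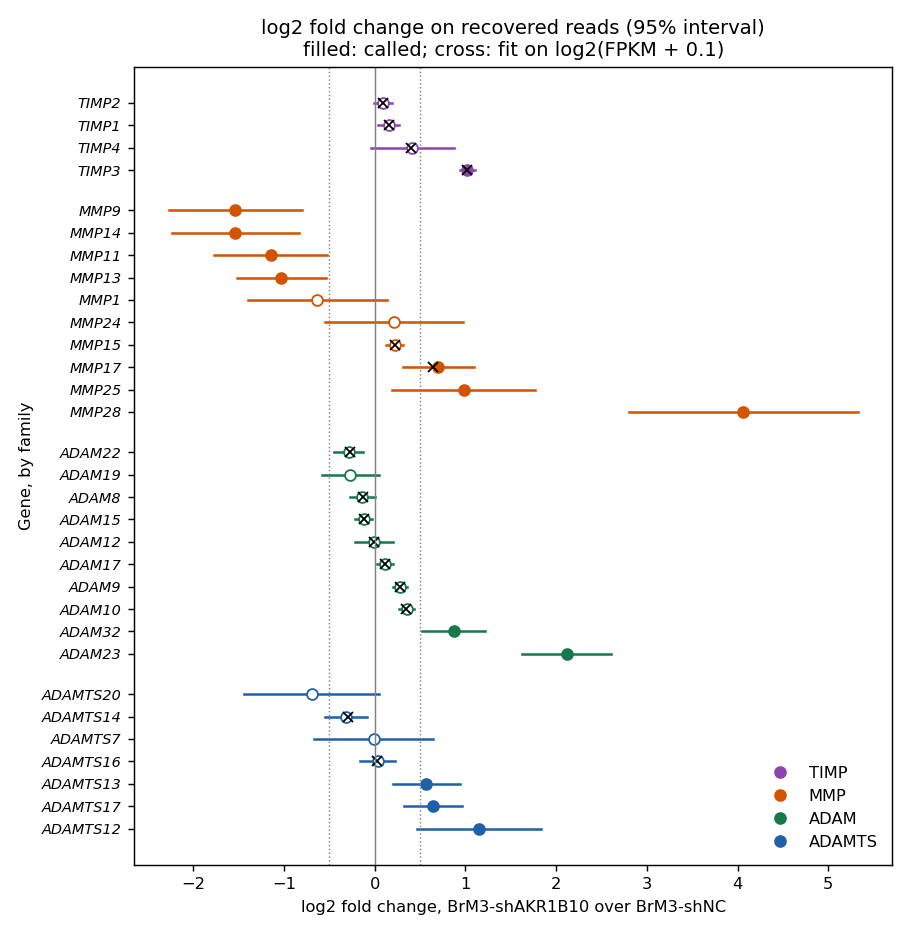
Log2 fold change with its 95% interval for the 31 members with at least 10 reads on average, from limma's voom on recovered reads, grouped by family. Filled points were called, dotted lines mark the threshold of 0.5, and crosses give the fit on log2(FPKM + 0.1) for the 15 members it tested. The 4 members called lower are all MMPs, from -1.54 for MMP9 to -1.03 for MMP13.

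The 4 MMPs that were lower are secreted or membrane-type enzymes with different matrix substrates, and all 4 had few reads. MMP9 (ENSG00000100985, chromosome 20, 46008908 to 46016561, plus strand), the gelatinase of basement membrane collagen, had 13, 16 and 12 reads in BrM3-shAKR1B10 and 27, 53 and 47 reads in BrM3-shNC. These counts equal 0.328 ± 0.0463 against 1.02 ± 0.362 FPKM (SD, n = 3), with a log2 fold change on reads of -1.54 (SE 0.350, limma voom adjusted p = 0.0015). MMP14 (ENSG00000157227, chromosome 14, 22836557 to 22849027, plus strand), the membrane-type enzyme that activates MMP2, had 13, 9 and 9 reads against 37, 27 and 28 reads (log2 fold change -1.53, SE 0.331, limma voom adjusted p = 9.9e-04). MMP13 (ENSG00000137745, chromosome 11, 102942995 to 102955734, minus strand), a collagenase, had 22, 24 and 28 reads against 50, 51 and 51 reads (log2 fold change -1.03, SE 0.234, limma voom adjusted p = 0.0015). For these 3 genes no BrM3-shAKR1B10 library reached the lowest control, and all 3 were also called on log2(FPKM + 0.1) when genes from 0.1 FPKM on were tested, at adjusted p of 0.0164, 0.0279 and 0.0067. In the voom fit they stayed called when any 1 library was left out.

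MMP11 (ENSG00000099953), a stromelysin by name, was less even. It had 15, 48 and 27 reads in BrM3-shAKR1B10 against 69, 62 and 52 in BrM3-shNC (log2 fold change -1.15, SE 0.297, limma voom adjusted p = 0.0042). Without BrM3-shAKR1B10 replicate 1 the log2 fold change was -0.74, and without replicate 2 of that group it was -1.55. In the FPKM fit from 0.1 FPKM on, the adjusted p was 0.0983. MMP11 shares 4.21% of its exon bases with CHCHD10 on the opposite strand, which stood at 38.6 against 31.3 FPKM, and MMP9 shares 18.4% with SLC12A5-AS1, at 0.158 against 0.268 FPKM. Whether the reads were counted by strand is not given in the sources used here, so reads of the partners cannot be told apart.

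MMP28 and ADAM23 had more reads in every BrM3-shAKR1B10 library than in any control. MMP28 (ENSG00000271447, chromosome 17, 35756249 to 35795707, minus strand), called epilysin, had 40, 27 and 20 reads in BrM3-shAKR1B10 and 1, 6 and 0 in BrM3-shNC. The mean levels were 0.570 ± 0.203 and 0.0477 ± 0.0669 FPKM, and the gene entered the test only through the BrM3-shAKR1B10 libraries, so that its test adds no support to the counts. Its fitted log2 fold change of 4.06 (SE 0.601, limma voom adjusted p = 2.2e-05) therefore depends on how near-empty libraries are handled, and was 2.23 on log2(FPKM + 0.1). With 1 library left out it ranged from 3.17, without BrM3-shNC replicate 3, to 5.07, without BrM3-shNC replicate 2. MMP28 lies within TAF15, a gene on the opposite strand with no shared exon bases, which had 32.2 against 31.8 FPKM (log2 fold change 0.02, limma adjusted p = 0.795).

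ADAM23 (ENSG00000114948, chromosome 2, 206443539 to 206621130, plus strand), which lacks protease activity and binds integrins, had 95, 84 and 94 reads against 23, 21 and 18 reads. Its level was 0.796 ± 0.0619 against 0.181 ± 0.0235 FPKM, a 4.40-fold difference with a log2 fold change of 2.12 (SE 0.234, limma voom adjusted p = 6.9e-07). It was called in each of the 11 settings that tested it. AC010731.2, an antisense gene that overlaps ADAM23 with 0 shared exon bases, stood at 0.510 against 0.0896 FPKM, with BrM3-shNC replicates 1 and 3 at 0. ADAM32 had 91, 111 and 106 reads against 57, 59 and 52 reads (log2 fold change 0.87, SE 0.167, limma voom adjusted p = 3.3e-04). The groups were well apart for both genes. ADAM32 was called in 10 of 11 settings, and not on log2(FPKM + 0.1) with no filter (limma adjusted p = 0.0923). It starts at 39106990 on chromosome 8, after the end of the far more abundant ADAM9 at 39105144 on the same strand, and any link was not tested. In ADAMs without a catalytic site, 3 of 8 had enough reads, 2 were higher and ADAM22 was not called, a count too small to set against the 7.29% of all genes that were higher on reads.

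The remaining members called higher on reads were ADAMTS17, ADAMTS13, ADAMTS12 and MMP25, beside TIMP3 and MMP17. ADAMTS17 had 133, 119 and 140 reads against 103, 73 and 76 reads (log2 fold change 0.64, limma voom adjusted p = 0.0019). ADAMTS13, the protease of von Willebrand factor, had 84, 80 and 74 reads against 48, 51 and 62 reads (log2 fold change 0.57, limma voom adjusted p = 0.0139). ADAMTS12, which can cut the cartilage protein COMP, had 32, 34 and 53 reads against 22, 21 and 11 reads (log2 fold change 1.15, limma voom adjusted p = 0.0078). MMP25, a membrane-type enzyme known from neutrophils, had 22, 20 and 25 reads against 6, 14 and 16 reads (log2 fold change 0.98, limma voom adjusted p = 0.0420).

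Apart from ADAMTS17, each of these last calls was lost in at least 1 of the fits with 1 library left out. Without BrM3-shNC replicate 1 the adjusted p of ADAMTS13 was 0.0688, and without BrM3-shNC replicate 3 that of ADAMTS12 was 0.0556. The adjusted p of MMP25 was 0.0765 without BrM3-shAKR1B10 replicate 1, 0.111 without replicate 3 of that group and 0.265 without BrM3-shNC replicate 1, where its log2 fold change was 0.53. MMP25 also shares 35.2% of its exon bases with MMP25-AS1, at 0.772 against 0.615 FPKM. On log2(FPKM + 0.1) from 0.1 FPKM on, none of ADAMTS17, ADAMTS13, ADAMTS12 and MMP25 passed.

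**Figure D4:**
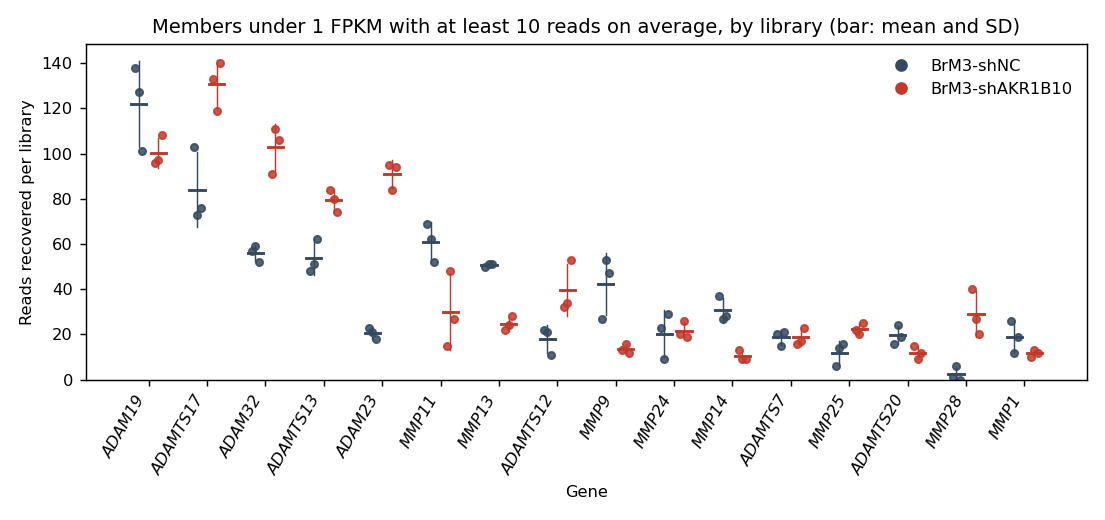
Reads recovered per library for the 16 members under 1 FPKM with at least 10 reads on average, with 1 point per library and bars for the mean and SD of each group. ADAM23 runs from 84 to 95 reads in BrM3-shAKR1B10 and 18 to 23 in BrM3-shNC, MMP9 and MMP14 run the other way, and no member shown exceeds 140 reads.

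The other members with at least 10 reads were not called. MMP1, the interstitial collagenase, had 10, 13 and 12 reads against 26, 12 and 19 reads (log2 fold change -0.63, 95% interval -1.39 to 0.13, limma voom adjusted p = 0.172). ADAMTS20 had 15, 9 and 12 reads against 16, 24 and 19 reads, without overlap of the groups (log2 fold change -0.69, 95% interval -1.44 to 0.05, limma voom adjusted p = 0.124). ADAM19 had 96 to 108 reads against 101 to 138, MMP24 had 19 to 26 against 9 to 29, and ADAMTS7 had 16 to 23 against 15 to 21. The 95% interval of the log2 fold change ran from -0.58 to 0.05 for ADAM19, from -0.55 to 0.97 for MMP24 and from -0.66 to 0.65 for ADAMTS7. MMP24 shares 18.1% of its exon bases with MMP24OS on the opposite strand, which stood at 3.64 against 3.71 FPKM. Reads of MMP24OS cannot be told apart from those of MMP24.

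Several proteases often named in invasion were close to silent in both groups. MMP2, the other gelatinase, had 9 reads in total over the 3 BrM3-shAKR1B10 libraries and 5 over the 3 controls. MMP7, a matrilysin, had 1 and 4 reads, and MMP3, a stromelysin, had 1 and 0 reads. ADAMTS1, ADAMTS4, ADAMTS8, ADAMTS9 and ADAMTS15, which cut proteoglycans, had 1 to 15 reads in total in BrM3-shAKR1B10 and 0 to 4 in BrM3-shNC. MMP19 had 29 against 13 reads in total. These genes were under the filter on reads, and no difference is read from their counts.

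The MMP cluster of chromosome 11 shows this silence over a stretch of the genome. Its 9 genes, MMP7, MMP20, MMP27, MMP8, MMP10, MMP1, MMP3, MMP12 and MMP13, lie from 102520508 to 102955734, all on the minus strand. MMP27, MMP8 and MMP12 had no reads, 4 genes had fewer than 10 reads on average, and only MMP1 and MMP13 had more. The whole cluster had 114 reads over the 3 BrM3-shAKR1B10 libraries and 225 over the 3 BrM3-shNC libraries, of which MMP13 gave 74 and 152.

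The genes that activate or guide these proteases were read from a list of 28 regulators and partners. Of these, 20 were tested, 2 rose, 1 fell and 17 were not called, with a median log2 fold change of 0.17 beside -0.01 over all genes tested. Over all genes 5.83% rose and 7.45% fell. PCSK6, a proprotein convertase that activates protease precursors, had 2.88, 3.17 and 2.67 FPKM against 1.84, 1.66 and 1.70 FPKM (log2 fold change 0.71, SE 0.0924, limma adjusted p = 0.0013). ADAMTSL4, an ADAMTS-like matrix protein without a protease domain, had a log2 fold change of 0.91 (limma adjusted p = 0.0034), at 1.65 against 0.826 FPKM on average, so that it reached the filter of 1 FPKM only through BrM3-shAKR1B10. Of the 19 genes with both group means above the filter, 1 rose and 1 fell. RHBDF2, which encodes iRhom2, the carrier that brings ADAM17 to the surface, had 4.82, 4.80 and 4.86 FPKM against 6.98, 6.81 and 6.89 FPKM and fell just past the threshold (log2 fold change -0.50, SE 0.0392, limma adjusted p = 1.6e-04). Its log2 fold change was inside the threshold without BrM3-shNC replicate 1 (-0.496), with quantile normalization (-0.49), with TPM (-0.47) and with a pseudocount of 1 (-0.44).

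The related carrier RHBDF1 had 17.8 against 15.8 FPKM on average (log2 fold change 0.17, limma adjusted p = 0.0700). FURIN, the main convertase of these proteases, had 37.6 against 44.8 FPKM (log2 fold change -0.26, limma adjusted p = 0.0114). TSPAN15, a tetraspanin that guides ADAM10 to cadherins, had 71.6, 67.1 and 67.2 FPKM against 46.8, 50.2 and 50.8 FPKM, with a log2 fold change of 0.48 just under the threshold (limma adjusted p = 3.7e-04). RECK, a membrane inhibitor of MMPs, stood at only 0.0403 against 0.0798 FPKM and was not tested.

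A list of 31 cell surface proteins that ADAM10 or ADAM17 can release was read in the same way. Of these, 26 were tested, 5 rose, 4 fell and 17 were not called, with a median log2 fold change of -0.13 beside -0.01 over all genes tested and the same shares of 5.83% and 7.45%. CDH2 and IL6R reached the filter only through BrM3-shAKR1B10, and of the 24 genes with both group means above it, 3 rose and 4 fell. CDH2, the neural cadherin, had 1.75 against 0.696 FPKM on average (log2 fold change 1.22, SE 0.149, limma adjusted p = 0.0010). TGFA, a ligand of EGFR, had 6.92, 6.34 and 6.83 FPKM against 3.94, 3.62 and 3.84 FPKM (log2 fold change 0.80, SE 0.0572, limma adjusted p = 1.2e-04). SDC4, a heparan sulfate proteoglycan, had 135.8, 129.9 and 128.8 FPKM against 85.9, 90.4 and 89.0 FPKM (log2 fold change 0.57, limma adjusted p = 6.6e-05). MET and IL6R were the other 2 that rose, with log2 fold changes of 0.53 and 0.56. EPGN, another EGFR ligand on the list, had 1.09, 0.733 and 0.933 FPKM against 0.240, 0.228 and 0.272 FPKM and was under the filter.

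The substrates that fell were 2 receptors or adhesion proteins and 2 EGFR ligands. AXL, a receptor tyrosine kinase, had 2.06, 2.05 and 2.03 FPKM against 3.64, 3.92 and 3.66 FPKM (log2 fold change -0.84, SE 0.0633, limma adjusted p = 1.4e-04). ALCAM, an adhesion protein, had 28.9, 29.2 and 28.0 FPKM against 53.0, 49.9 and 47.9 FPKM (log2 fold change -0.81, SE 0.0440, limma adjusted p = 4.0e-05). HBEGF and AREG had log2 fold changes of -0.63 and -0.54 with adjusted p of 0.0425 and 0.0367. On log2(FPKM + 0.1) the call of HBEGF was lost when any library other than BrM3-shAKR1B10 replicate 3 was left out (adjusted p 0.0533 to 0.114), that of AREG without BrM3-shAKR1B10 replicate 2 or 3 or BrM3-shNC replicate 1 or 3 (0.0929 to 0.103), and that of IL6R without any 1 control (0.0675 to 0.0737). Without BrM3-shAKR1B10 replicate 1 or 2, IL6R was under the filter of 1 FPKM and was not tested. On recovered reads, fits with 1 library left out called HBEGF in 5 of 6, AREG in 2 of 6 and IL6R in 6 of 6. Without BrM3-shNC replicate 3 the log2 fold change of MET was 0.49. These are transcript levels, and shedding of the proteins was not measured.

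**Figure D5:**
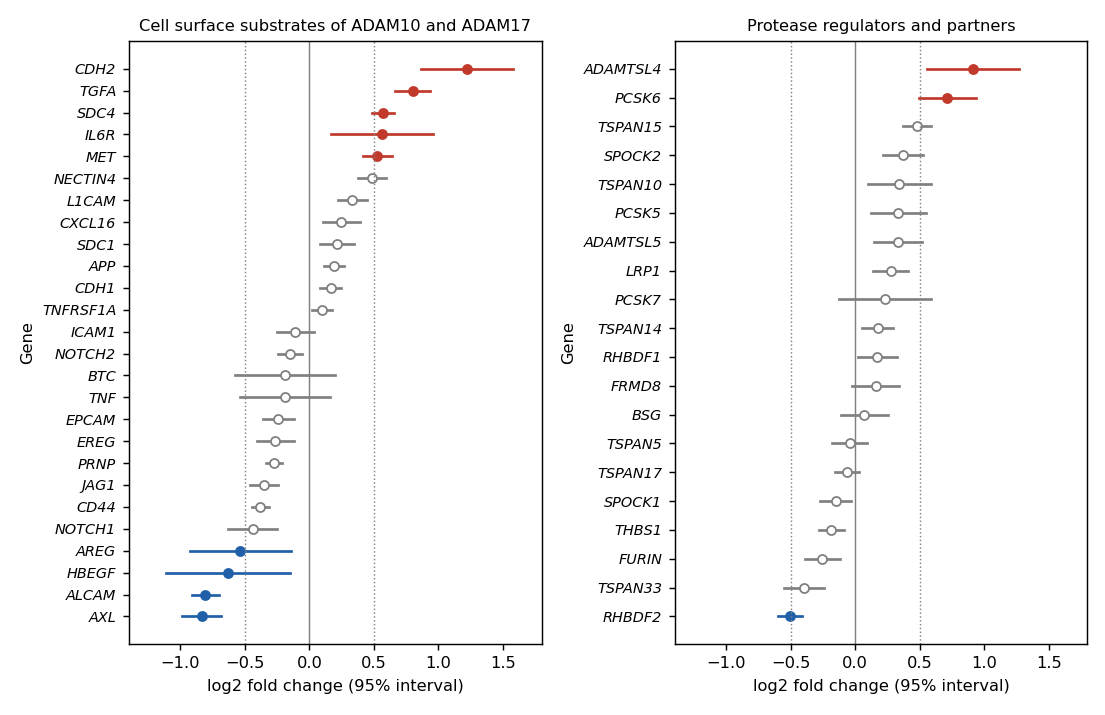
Log2 fold change on log2(FPKM + 0.1) with its 95% interval for the 26 tested substrates of ADAM10 and ADAM17 (left) and the 20 tested regulators and partners (right). Red points rose, blue points fell, open points were not called, and dotted lines mark the threshold of 0.5. Among the tested substrates the values run from -0.84 for AXL to 1.22 for CDH2.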

How the data were processed

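PolyA RNA of 6 PC9-BrM3 libraries was sequenced. The authors aligned reads with HISAT2 2.0.5, counted them with featureCounts 1.5.0-p3 and deposited 1 table of FPKM values with gene lengths, without pooling replicates. Gene identifiers and positions match GENCODE 29 (GRCh38). The reads recovered from FPKM and length were whole for 100% of values (within 0.01), and the deposited FPKM already carries a median-of-ratios scaling. Groups came from the sample titles.

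Genes with a mean of at least 1 FPKM were tested with limma 3.58.1 in R 4.3.3 on log2(FPKM + 0.1) (eBayes with trend, Benjamini-Hochberg over all genes tested), with calls at adjusted p below 0.05 and a log2 fold change beyond 0.5 either way. The study applied a count model at these thresholds. The recovered reads were also tested with limma's voom, which reaches lower levels. On simulated data, 175 of 192 tested genes changed by a log2 fold change of 1 were called with the right sign by the FPKM fit (7 false calls) and 186 of 189 by voom (1 false call). The changed genes were drawn from those with a mean of at least 1 FPKM, and the simulated dispersion was the same for all genes. These rates therefore do not cover members under 1 FPKM or genes with uneven libraries. An exact permutation test of 3 against 3 cannot go below 0.10 and was not used.

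Members and gene lists were chosen with earlier results of these data known. Genes were named by a fixed rule, which covers AKR1B10, the TIMPs, common MMPs and ADAMs, all members with a mean of at least 1 FPKM, members with at least 10 reads whose groups do not overlap, and called genes of the 2 related lists. ADAM19, MMP24, ADAMTS7, the silent or nearly silent members, RHBDF1, FURIN, TSPAN15, RECK, EPGN and genes overlapping members were named after their values were seen. Motifs were searched in RefSeq promoters with Python 3.11.15. Other alternatives were pseudocounts of 1 and 0.01, other filters, TPM, quantile normalization, no trend, a replicate block, protein-coding genes, other fold thresholds and each library left out.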

Additional observations from a re-analysis of the deposited data

How the results depend on the processing

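Of 781 single-gene alternatives over 41 genes, 706 kept direction and side of the threshold, 61 lost the call, 1 gained it and 13 changed sign, and 26 genes kept theirs throughout. Against 2 members called higher and 0 lower, the counts were 1 higher with a log2 threshold of 1, 7 and 1 with no fold threshold, 1 higher with a pseudocount of 1, 3 and 3 of 53 tested with no filter, 5 and 3 of 33 from 0.1 FPKM on, 1 higher of 9 from 5 FPKM on, 6 and 2 of 25 with TPM, 1 higher with quantile normalization, and 9 and 4 of 31 with voom on recovered reads. Leaving out 1 library gave 1 to 2 higher and 0 lower. Over all genes, against 766 higher and 980 lower, there were 168 and 205 with a log2 threshold of 1, 2548 and 3044 with no fold threshold, 940 and 1088 of 31583 with no filter, 1059 and 1163 of 21762 from 0.1 FPKM on, 290 and 532 of 7355 from 5 FPKM on, 1138 and 1012 of 17336 with TPM, 497 higher with a pseudocount of 1 and 1174 higher with voom. The sign changes were in ADAM12, to 0.024 with TPM, a range of -0.065 to 0.035 with 1 library left out and 0.010, 0.017 and 0.041 with voom and 1 library left out, and in ADAMTS16, with a range of -0.0164 to 0.105 and voom values of -0.0100, -0.0029 and -0.0128. Neither gene was called in any setting. With the replicate number as a block, 1 member was higher and 0 lower (967 genes lower and 719 higher over all), and MMP17 had an adjusted p of 0.0886. Same-numbered libraries did not deviate together over the genes with a mean of at least 1 FPKM (correlations -0.0155, 0.0039 and 0.0038). The labels name no pairing, and a batch limited to few genes would not show in these correlations. With voom, the block and the fits with 1 library left out, added after seeing the data, gave 7 to 9 members higher and 4 lower. MMP17 did not pass without the filter (adjusted p = 0.0611) or with quantile normalization (0.0690), and had a log2 fold change of 0.36 with a pseudocount of 1. The causes were not tested. Depth limits what can be read from the 13 of 23 MMPs and 12 of 19 ADAMTS genes with fewer than 10 reads on average.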
